A study of Mus musculus with 16 samples.

Results

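The BCL2 family sets whether the outer mitochondrial membrane stays intact, and 10 of its genes were followed through 4 subpopulations of positively selected germinal center (GC) B cells. The members were the rows named Bcl2, Bcl2l1, Mcl1 and Bcl2a1b (pro-survival), Bax and Bak1 (pore formers), and Bcl2l11, Bbc3, Pmaip1 and Bid (BH3-only), 10 of the 51912 genes in the deposited table. The rule takes genes by name and uses no measured value, although it was written with earlier results of these data known. The cells were splenic GC B cells (B220+ CD38low CD95+) of male and female cMyc gfp/gfp mice, aged 6 to 15 weeks, that had received sheep red blood cells intraperitoneally and were sorted on day 7. All groups carried the reporter, a GFP-cMyc fusion made from the endogenous cMyc locus, and all were sorted as GFP+, so no cMyc-negative cells were included. The cMyc+ prePB gate took CD69hi cells, the cMyc+ early gate CD23hi CD21/35hi cells, the cMyc+ lateCD23int gate CD23int CD21/35int cells, and the cMyc+ lateCD23lo gate CD23lo CD21/35lo cells, with 4 RNA-seq libraries each. The labels do not say which libraries came from the same animals or whether animals were pooled, so p-values measure the spread between these libraries, which may be technical.

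Pro-survival proteins bind and hold the pore formers BAX and BAK, and BH3-only proteins free or activate them, after which cytochrome c leaves the mitochondrion and caspases are activated. GC B cells are known for low BCL2 protein and for a need for MCL1, and MYC sensitizes cells to apoptosis unless survival signals accompany it. RNA levels do not give the protein levels of these genes, several of which are set after transcription. In bulk libraries, fewer cells that express a gene and less RNA per cell cannot be told apart.

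The library totals lay between 19812080 and 25795815 reads, with 14650 to 15573 genes above 0. A total of 3 reads, used as the detection floor, equalled 2.48 to 3.23 normalized counts, which are read counts divided by a factor for the size of the library, and this floor covers counting error only. The 6 GC B cell markers reported here (Cd79a, Cd79b, Bcl6, Fas, S1pr2 and Mef2b) were detected in every group. Mean Fcer2a, which encodes CD23, was 13398 normalized counts in cMyc+ early, 8594 in cMyc+ lateCD23int and 2274 in cMyc+ lateCD23lo, the order of the CD23 gates. Mean Cd69 was 3453 in cMyc+ prePB and 3762 in cMyc+ lateCD23int, so the RNA of the gating marker did not set cMyc+ prePB apart. Summed markers of T cells stayed at or under 139 normalized counts and those of neutrophils at or under 8.14, with Ngp and Camp at 0 throughout. Erythroid markers ranged from 30.7 to 4169.

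The libraries fell into 2 sets by base composition, and the levels of several members differed between them. A G+C index was formed for each library as the mean log2 deviation of the 20% of genes richest in G and C minus that of the 20% poorest, over 8658 genes with a mean of at least 100. The index lay between -0.58 and -0.10 in 9 libraries and between 0.24 and 0.72 in the other 7, with no library between. The set with the high index held 3 cMyc+ prePB, 2 early and 2 lateCD23int libraries and 0 of the 4 lateCD23lo libraries, so set and subpopulation overlap in part and a comparison with lateCD23lo within the high set could not be made. Differences were therefore also fitted with the set, or with the index, as a term in the model, which were alternatives chosen after the data were seen.

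Bcl2a1b is 1 of 4 copies of the A1 gene on mouse chromosome 9, and the copies are so alike that short reads can rarely be told apart. The coding sequence of Bcl2a1b (516 bases) differed from that of Bcl2a1d at 6 positions and from that of Bcl2a1a at 11 positions, and the longest stretch shared without a difference was 217 bases in both cases. Identity of the coding sequences was 98.8% between Bcl2a1b and Bcl2a1d, 97.9% between Bcl2a1b and Bcl2a1a, and 95.8% over the 383 bases that Bcl2a1b and the shorter Bcl2a1c share. The first 90 coding bases are shown because they hold the densest differences, with capitals at the 6 positions where the 3 copies are not all the same. They lie in GRCm38 at chr9:89199360-89199449 (plus strand) for Bcl2a1b, chr9:88731630-88731719 (minus strand) for Bcl2a1d and chr9:88957051-88957140 (plus strand) for Bcl2a1a.
Bcl2a1b: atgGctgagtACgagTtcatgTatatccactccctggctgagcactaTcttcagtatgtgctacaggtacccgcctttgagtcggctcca
Bcl2a1d: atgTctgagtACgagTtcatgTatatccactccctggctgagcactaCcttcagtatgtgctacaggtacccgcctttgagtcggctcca
Bcl2a1a: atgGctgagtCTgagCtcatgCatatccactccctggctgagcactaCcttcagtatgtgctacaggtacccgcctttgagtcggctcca
Bcl2a1b and Bcl2a1d differed at only 2 of these 90 positions, so values for a single A1 copy rest on how reads with several matches were shared out and are uncertain.

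Because every library came from cells sorted for cMyc, the regions upstream of the members were also read for CACGTG, the E-box to which MYC-MAX dimers bind and which reads the same on both strands. In the 250 bases before RefSeq starts, it was present in 2 of 14 windows of the 9 members searched, 1 of Bax and 1 of Bbc3, against 6.02% of all 32851 windows. The Bax window is printed because its E-box lies close to the start, beginning 9 bases before it. The last 100 bases before that start (chr7:45466899-45466998 of GRCm38.p6, minus strand) read 5′ to 3′ as follows, with the E-box in capitals.
Bax: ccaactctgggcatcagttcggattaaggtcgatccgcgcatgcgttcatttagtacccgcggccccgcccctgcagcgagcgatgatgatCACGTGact
A match is a description of the letters and not a measured binding site.

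Levels of different genes were compared per kilobase of annotated exon. In that unit Bcl2a1b was the most abundant member, with a median over 16 libraries of 7147 normalized counts per kb, followed by the BH3-only gene Bid at 2928 and the pore former Bax at 1981. The median was 983 per kb for Mcl1, a short-lived guardian of B cells, and 284 for Pmaip1, which encodes NOXA, the BH3-only partner of MCL1. Bak1 stood at 94.7, Bcl2l1 (BCL-XL) at 36.9, Bcl2l11 (BIM) at 22.7 and Bcl2 at 18.5, and Bbc3 (PUMA) was lowest at 1.37. The order was held from library to library for most neighbours. Bcl2a1b exceeded Bid in 16 of 16 libraries, Bid exceeded Bax in 15, Bax exceeded Mcl1 in 16, Mcl1 exceeded Pmaip1 in 16 and Bak1 exceeded Bcl2l1 in 16. Pmaip1 exceeded Bak1 in 13, Bcl2 exceeded Bbc3 in 14 and Bcl2l1 exceeded Bcl2l11 in 12, whereas Bcl2l11 exceeded Bcl2 in only 7 of 16, so the places of that pair were not separated.

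**Figure D1:**
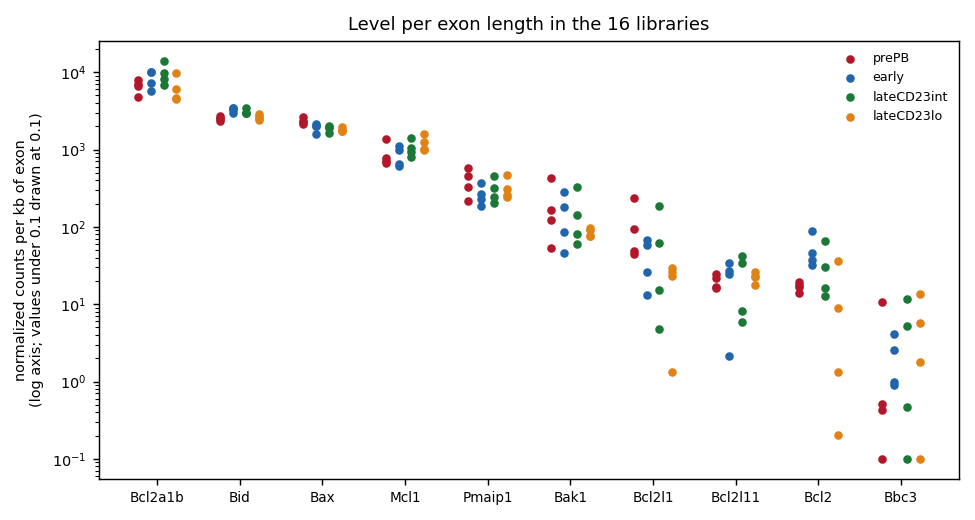
Normalized counts per kb of exon (log axis) of the 10 members, ordered by their median, with 1 point per library and the color giving the subpopulation. Bcl2a1b, Bid, Bax and Mcl1 form the upper range, from 619 (Mcl1) to 14094 (Bcl2a1b) per kb. Bcl2l1, Bcl2l11, Bcl2 and Bbc3 each spread over 10-fold or more among libraries.

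A limma model of log2(normalized count + 1), fitted to all 12505 genes with a mean of at least 10, compared the subpopulations with Benjamini-Hochberg (BH) adjustment. It held 9 members. Bbc3, with a mean of 7.80, fell under the filter. At an adjusted p threshold of 0.05, 0 of 9 members were called in cMyc+ prePB versus early, where 0.192% of all genes were called, and 0 of 9 in each of the other comparisons. The background was 0.144% in cMyc+ prePB versus lateCD23int, 0.264% in cMyc+ prePB versus lateCD23lo, 0.008% in cMyc+ early versus lateCD23int, 0.28% in cMyc+ early versus lateCD23lo and 0.008% in cMyc+ lateCD23int versus lateCD23lo. It was 0.312% in cMyc+ prePB against the mean of the other 3 groups and 0.408% in the F test over the 4 groups. edgeR and DESeq2 on recovered reads also called 0 members in all 8 comparisons. With so few calls in the whole table, the absence of a call does not show that the members were alike between groups.

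At an unadjusted p under 0.05, limma counted 1 of 9 members in cMyc+ prePB versus early (8.58% of all genes), 2 in prePB versus lateCD23int (8.77%), 3 in prePB versus lateCD23lo (12.7%), 0 in early versus lateCD23int (3.71%), 3 in early versus lateCD23lo (10.3%) and 2 in lateCD23int versus lateCD23lo (6.28%). There were 3 in cMyc+ prePB against the other 3 groups (11.1%) and 2 in the F test (10.2%). The 4 libraries of 1 group lay wholly above those of the other for 2 members in cMyc+ prePB versus early (4.23% of all genes), 2 in prePB versus lateCD23int (5.21%), 2 in prePB versus lateCD23lo (6.56%), 0 in early versus lateCD23int (2.48%), 1 in early versus lateCD23lo (6.23%) and 1 in lateCD23int versus lateCD23lo (3.77%). These comparisons share libraries and are not independent. Bid, Bax, Bcl2 and Bcl2l1 made up the separated members, and with this few members the shares are descriptions.

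**Figure D2:**
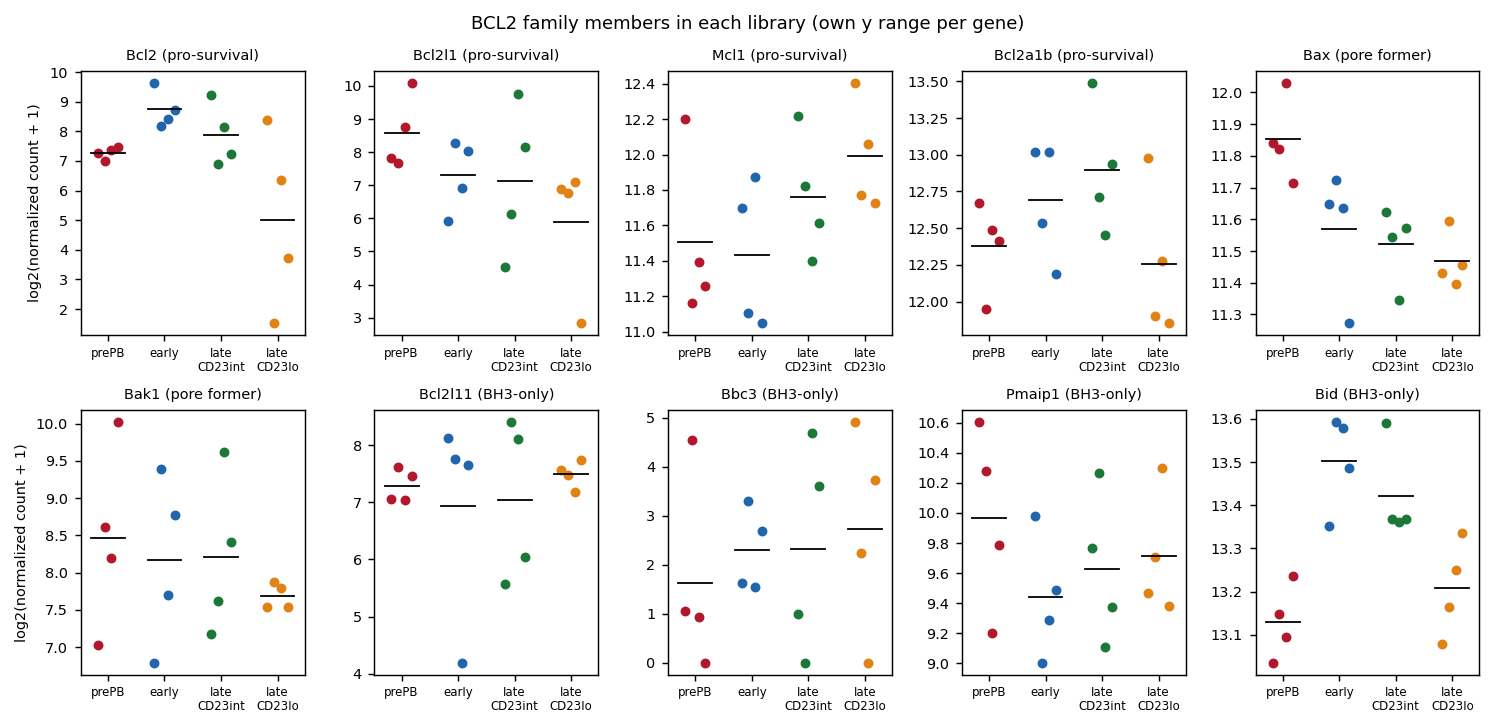
Each panel shows 1 member as log2(normalized count + 1) in the 16 libraries, with points for libraries, colors for subpopulations, bars for group means and a separate y range per gene. Bid is lowest in cMyc+ prePB and lateCD23lo, Bax is highest in prePB, and Bcl2 scatters widely in lateCD23lo.

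Among the pro-survival genes, Bcl2 (chr1:106538178-106714274, GRCm38, minus strand), the founding member, had its highest mean in cMyc+ early and its lowest in cMyc+ lateCD23lo. The 4 cMyc+ prePB libraries held 153, 128, 164 and 175 normalized counts, and the cMyc+ early libraries 799, 290, 339 and 424. The cMyc+ lateCD23int libraries held 599, 117, 279 and 149. The cMyc+ lateCD23lo libraries held 330, 1.87, 81.6 and 12.2, and the second of them, with 2 reads, was under the detection floor. All early libraries were thus above all prePB libraries, the prePB libraries were close together, and lateCD23lo ran from nearly undetected to a level within the early range.

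The difference in Bcl2 between cMyc+ early and lateCD23lo was 3.75 on the log2 scale (SE 0.99, unadjusted p = 0.00131, adjusted p = 0.153 in limma), with early higher at 4 of 4 replicate numbers. The size depended on the scale and on the libraries. It was 2.13 in edgeR, which compares mean counts, 2.59 without lateCD23lo replicate 2 and 4.87 without lateCD23lo replicate 1, where the adjusted p became 0.0177 in limma. Bcl2 was also 2.28 higher in cMyc+ prePB than in lateCD23lo (SE 0.99, limma adjusted p = 0.347) and 2.87 higher in lateCD23int than in lateCD23lo (SE 0.99, limma adjusted p = 0.699). In edgeR these were 0.55 and 1.42, and mean Bcl2 was 155 in prePB, 286 in lateCD23int and 106 in lateCD23lo. PrePB was higher than lateCD23lo at 3 of 4 replicate numbers. With the G+C set as a term the difference between early and lateCD23lo was 3.92 (SE 1.08, limma adjusted p = 0.150). Without lateCD23lo replicate 2 the differences of prePB and lateCD23int from lateCD23lo became 1.12 and 1.71. For cMyc+ prePB versus early, where the libraries did not overlap, the difference was -1.47 (95% interval -3.54 to 0.61). In the F test over the groups, Bcl2 had an unadjusted p of 0.00875 and an adjusted p of 0.30 in limma.

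Bcl2 moved with a sum of markers of naive and recirculating B cells, which also carry Bcl2, but not with each marker alike. The sum of 3 naive markers (Ighd, Ccr7 and Klf2, 3 of 3 detected in each group) ranged from 257 to 889 normalized counts in cMyc+ prePB, 641 to 964 in early, 480 to 846 in lateCD23int and 237 to 649 in lateCD23lo. By group means, most of this sum was Ighd in every group. The log2 sum and log2 Bcl2 had a Pearson r of 0.88 over the 9 libraries with a low G+C index and 0.87 over the 7 with a high one, and of 0.58 over all 16 after the group means were removed. The libraries share their depth and scaling, and the part of the naive markers in the Bcl2 difference was not tested. From early to lateCD23lo, mean Ighd, the gene of the IgD heavy chain, went from 685 to 269 and mean Klf2, a transcription factor of quiescent lymphocytes, from 79.3 to 3.15, whereas mean Ccr7, a chemokine receptor, went from 66.9 to 136. Summed macrophage and monocyte markers (Lyz2, Csf1r, Adgre1, Cd68 and C1qa) were higher in lateCD23lo, at 754 to 1427 normalized counts with 4 of 5 detected, than in the other groups, at 201 to 861. Csf1r and Adgre1 were at 0 in prePB and C1qa was at 0 in early. Mean Lyz2, Cd68 and Adgre1 were highest in lateCD23lo, at 390, 505 and 61.5, although Lyz2 ranged from 0 to 968 there. Mean Csf1r and C1qa were highest in lateCD23int, at 13.6 and 18.1, against 1.02 and 0.234 in lateCD23lo. The Pearson r of the macrophage and monocyte sum with Bcl2 was -0.57 in the low and -0.58 in the high G+C set. It was 0.0029 after the group means were removed, and the part of this sum was not tested.

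Bcl2l1, which encodes BCL-XL (chr2:152780668-152831728, minus strand), had its highest mean in cMyc+ prePB and its lowest in lateCD23lo. It measured 224, 202, 431 and 1096 normalized counts in cMyc+ prePB, 59.7, 311, 120 and 264 in early, 21.9, 69.2, 860 and 285 in lateCD23int, and 119, 107, 137 and 6.12 in lateCD23lo. Every prePB library was above every lateCD23lo library, but the early and lateCD23int libraries reached into both. The difference between prePB and lateCD23lo was 2.69 on the log2 scale (SE 1.04, unadjusted p = 0.019, adjusted p = 0.288 in limma), and 1.66 without lateCD23lo replicate 4, the library at 6.12. Against the mean of the other 3 groups, prePB was 1.80 higher (SE 0.85, limma adjusted p = 0.443).

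Bcl2l1 was higher in the libraries with a high G+C index, at 202 to 1096 normalized counts with a median of 311, than in those with a low one, at 6.12 to 224 with a median of 107. Over the 16 libraries the Pearson r of Bcl2l1 with the index was 0.77, and 7.37% of tested genes had a larger absolute r. All 4 lateCD23lo libraries and 1 of 4 prePB libraries were in the low set. With the set as a term the difference between prePB and lateCD23lo was 1.01 (SE 1.01, limma adjusted p = 0.828). With the index itself as a covariate it was 1.19 (SE 0.87, limma adjusted p = 0.732), and 0.47 with the replicate number as a further term.

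Mcl1 (chr3:95658788-95663176, plus strand), the survival gene on which GC B cells depend, was expressed at a similar order of magnitude in every library. It measured 4701, 2292, 2693 and 2448 normalized counts in cMyc+ prePB, 3328, 2202, 3744 and 2116 in early, 4766, 3614, 2697 and 3129 in lateCD23int, and 5425, 3490, 4259 and 3390 in lateCD23lo. The groups overlapped throughout, with 1 high library in prePB. The means were 2848 ± 813 (SD, n = 4) in early and 4141 ± 940 (SD, n = 4) in lateCD23lo, a log2 difference of -0.56 (SE 0.25, unadjusted p = 0.040, adjusted p = 0.452 in limma), with lateCD23lo higher at 4 of 4 replicate numbers. Mcl1 was separated by the G+C sets, without overlap, at 3328 to 5425 in the 9 libraries with a low index and 2116 to 3129 in the 7 with a high one. Over the 16 libraries the Pearson r of Mcl1 with the index was -0.83, and 3.73% of tested genes had a larger absolute r. The share of all genes that the sets separate is not given here. With the set as a term the difference between early and lateCD23lo was -0.21 (SE 0.17, limma adjusted p = 0.752), and with the index it was -0.33 (SE 0.16, limma adjusted p = 0.484). Summed plasma cell markers (Prdm1, Xbp1, Sdc1, Jchain and Tnfrsf17) ranged from 22716 to 29243 in early, with 4 of 5 detected, and from 55349 to 89658 in lateCD23lo, with 3 of 5 detected and Tnfrsf17 at 0 in both groups. Most of this sum was Jchain, whose mean went from 23623 in early to 64836 in lateCD23lo. Mean Xbp1 went from 3599 to 4250, mean Prdm1 was also higher in lateCD23lo, and mean Sdc1 was lower there. The sum therefore mainly follows Jchain and not the listed markers alike. The Pearson r of the sum with Mcl1 was 0.34 in the low and 0.72 in the high G+C set, and its part in the Mcl1 difference was not tested.

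Bcl2a1b (chr9:89199209-89207827, plus strand), an NF-κB target induced by B cell receptor and CD40 signals, had its highest mean in cMyc+ lateCD23int. It measured 6518, 3946, 5740 and 5450 normalized counts in cMyc+ prePB, 8308, 5938, 8309 and 4657 in early, 11515, 6700, 5607 and 7853 in lateCD23int, and 8066, 3830, 4960 and 3696 in lateCD23lo. Each pair of groups overlapped. LateCD23int exceeded lateCD23lo by 0.65 on the log2 scale (SE 0.27, unadjusted p = 0.0255, adjusted p = 0.754 in limma), with lateCD23int higher at 4 of 4 replicate numbers. With the G+C set as a term the difference was 0.89 (SE 0.24, limma adjusted p = 0.440). The sum of the 3 naive markers had a Pearson r with Bcl2a1b of 0.84 in the low and 0.29 in the high G+C set, and of 0.62 over all libraries after the group means were removed, and its part in the difference was not tested.

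Of the A1 copies, Bcl2a1b and Bcl2a1d ran in parallel. Bcl2a1b made up 49.3% to 60.4% of the summed counts of the 4 copies and Bcl2a1d 38.6% to 48.7%, while Bcl2a1a stayed between 0.37% and 2.88% and Bcl2a1c between 0.31% and 0.60%. The share of Bcl2a1b was 49.3% to 53.9% in cMyc+ prePB, 52.2% to 55.3% in early, 56.0% to 58.9% in lateCD23int and 53.2% to 60.4% in lateCD23lo. The shares in lateCD23int thus overlapped neither those in prePB nor those in early, with a small gap from 55.3% in early to 56.0%. These shares rest on how reads with several matches were shared out, and how often other genes separate in this way is not given here. The log2 values of Bcl2a1b and Bcl2a1d had a Pearson r of 0.92 over the 16 libraries, and the copies share reads. The log2 difference of Bcl2a1d from lateCD23lo was 0.67 (SE 0.25) in both early (limma adjusted p = 0.36) and lateCD23int (limma adjusted p = 0.715). For Bcl2a1b the difference between early and lateCD23lo was smaller, at 0.44 (SE 0.27, limma adjusted p = 0.581), and 0.68 with the G+C set as a term (limma adjusted p = 0.310).

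Of the pore formers, Bax (chr7:45461697-45466898, minus strand) was the steady one. It measured 3665, 3622, 4183 and 3360 normalized counts in cMyc+ prePB, 3207, 3385, 3180 and 2473 in early, 3154, 2988, 2601 and 3045 in lateCD23int, and 2759, 3091, 2695 and 2806 in lateCD23lo. All prePB libraries were above all lateCD23int and all lateCD23lo libraries, and 1 early library, at 3385, was above the lowest prePB library. The group mean was 3707 ± 344 (SD, n = 4) in prePB and 2838 ± 175 (SD, n = 4) in lateCD23lo, a difference of 0.38 on the log2 scale (SE 0.14, 1.3-fold, unadjusted p = 0.0137, adjusted p = 0.264 in limma). The difference was 0.33 from lateCD23int (SE 0.14, limma adjusted p = 0.499) and 0.33 from the mean of the other 3 groups (SE 0.11, limma adjusted p = 0.270).

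Leaving out each library in turn kept the Bax difference between prePB and lateCD23lo from 0.32 to 0.43, with adjusted p from 0.199 to 0.506. The G+C sets overlapped, with Bax at 2695 to 3665 in the low and 2473 to 4183 in the high set, and the difference was 0.45 (SE 0.15, limma adjusted p = 0.339) with the set as a term.

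Bak1 (chr17:27019810-27029009, minus strand), the pore former that resides on mitochondria, was far more scattered than Bax. It measured 130, 392, 291 and 1040 normalized counts in cMyc+ prePB, 110, 673, 208 and 437 in early, 144, 196, 786 and 339 in lateCD23int, and 185, 235, 221 and 185 in lateCD23lo. The prePB, early and lateCD23int libraries each ran from under the lateCD23lo libraries to well over them. Pairwise log2 differences lay between -0.04 and 0.78, and the lowest unadjusted p was 0.231. The G+C sets separated Bak1 completely, at 110 to 235 in the 9 libraries with a low index and 291 to 1040 in the 7 with a high one. Over the 16 libraries the Pearson r of Bak1 with the index was 0.92, and 0.42% of tested genes had a larger absolute r. Within the sets Bak1 still rose with the index, with a Pearson r of 0.74 in the low and 0.76 in the high set. With the set as a term the pairwise differences lay between -0.55 and -0.04, so the 5 that had been above 0 changed sign. A second gene, Ggnbp1, overlaps Bak1 on the other strand, and whether reads were counted by strand is not given in the sources used here.

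Among the BH3-only genes, Bid (chr6:120891930-120916853, minus strand), which carries death receptor signals to mitochondria once cut by caspase-8, showed the most orderly pattern of all members. It measured 8396, 9071, 8748 and 9652 normalized counts in cMyc+ prePB and 8655, 9184, 9746 and 10331 in lateCD23lo. It measured 10456, 12357, 12231 and 11482 in early, and 12335, 10566, 10517 and 10568 in lateCD23int. Each library of early and lateCD23int was therefore above each library of prePB and lateCD23lo, although the gap from 10331 to 10456 was small. This grouping of the 4 subpopulations into pairs was noticed in the values and was not tested. The share of all genes that split in such a way is not given here.

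Bid was lower in prePB than in early by 0.37 on the log2 scale (a log2 difference of -0.37, SE 0.11, 1.3-fold, unadjusted p = 0.00431, adjusted p = 0.306 in limma), with means of 8967 ± 534 and 11631 ± 873 (SD, n = 4). The difference of prePB from lateCD23int was -0.29 (SE 0.11, limma adjusted p = 0.471) and that of prePB from the mean of the other 3 groups was -0.25 (SE 0.094, limma adjusted p = 0.323). Early exceeded lateCD23lo by 0.30 (SE 0.11, unadjusted p = 0.0191, limma adjusted p = 0.379). LateCD23int and lateCD23lo did not overlap either, with a difference of 0.21 (95% interval -0.027 to 0.45). Leaving out single libraries kept the difference between prePB and early from -0.42 to -0.34.

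The G+C sets overlapped for Bid, at 8396 to 12335 in the low and 8748 to 12357 in the high set, and the difference between prePB and early was -0.38 (SE 0.11, limma adjusted p = 0.171) with the set as a term. The Pearson r of Bid with the summed naive B markers was 0.32 in the low and 0.62 in the high G+C set, and -0.26 over all libraries after the group means were removed. The span of Bcl2l13, a relative of the family, overlaps that of Bid on the plus strand. Reads in any exon sequence of both could not be told apart if strand was not used, and overlap of the exons was not examined. Over all libraries the mean was 322 normalized counts for Bcl2l13 and 10268 for Bid. Gene models on the same strand overlap the spans of Bid (Gm44260), Bax (Gm45808), Bcl2a1b (Gm29094) and Bcl2 (Mir3473f and Gm37053). Counting by strand would not separate these, and overlap of their exons was not examined.

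Bcl2l11, which encodes BIM, a killer of germinal center and autoreactive B cells (chr2:128126038-128162547, plus strand), showed no ordering of the groups. It measured 132, 195, 130 and 176 normalized counts in cMyc+ prePB, 277, 214, 17.3 and 199.5 in early, 46.8, 338, 273 and 65.1 in lateCD23int, and 188, 178, 144 and 212 in lateCD23lo. The prePB and lateCD23lo libraries were close together, while 1 early library (17.3) and 2 lateCD23int libraries (46.8 and 65.1) were under all the rest. The pairwise log2 differences lay between -0.56 and 0.37, with a lowest unadjusted p of 0.465, and the interval for early versus lateCD23lo (95%, -2.14 to 1.02) left room for large differences either way. That difference, -0.56, was -0.90 with the G+C set as a term and -0.023 in edgeR.

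Pmaip1, the gene for NOXA (chr18:66458533-66465565, plus strand), had its highest mean in cMyc+ prePB. It measured 1556, 1240, 589 and 884 normalized counts in prePB, 1008, 513, 624 and 717 in early, 871, 1231, 551 and 664 in lateCD23int, and 706, 834, 1261 and 667 in lateCD23lo. All groups overlapped. The pairwise log2 differences lay between -0.27 and 0.53 with a lowest unadjusted p of 0.122, the largest being prePB versus early (95% interval -0.15 to 1.21). With the G+C set as a term prePB was higher than early by 0.69 (SE 0.27, unadjusted p = 0.0207, limma adjusted p = 0.352), than lateCD23lo by 0.74 in place of 0.25 (SE 0.32, unadjusted p = 0.0303, limma adjusted p = 0.479), and than the mean of the other 3 groups by 0.65 in place of 0.37 (SE 0.24, unadjusted p = 0.014, limma adjusted p = 0.293).

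Bbc3, the p53 target that encodes PUMA (chr7:16308393-16318205, plus strand), was at the limit of detection. It measured 1.07, 22.3, 0.902 and 0 normalized counts in cMyc+ prePB, 2.10, 8.85, 1.92 and 5.42 in early, 0.995, 0, 24.9 and 11.2 in lateCD23int, and 29.1, 3.74, 0 and 12.2 in lateCD23lo. In 8 of 16 libraries it had 3 reads or fewer, and each group held libraries on both sides of that floor. It was not tested between groups, and no fold was formed.

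**Figure D3:**
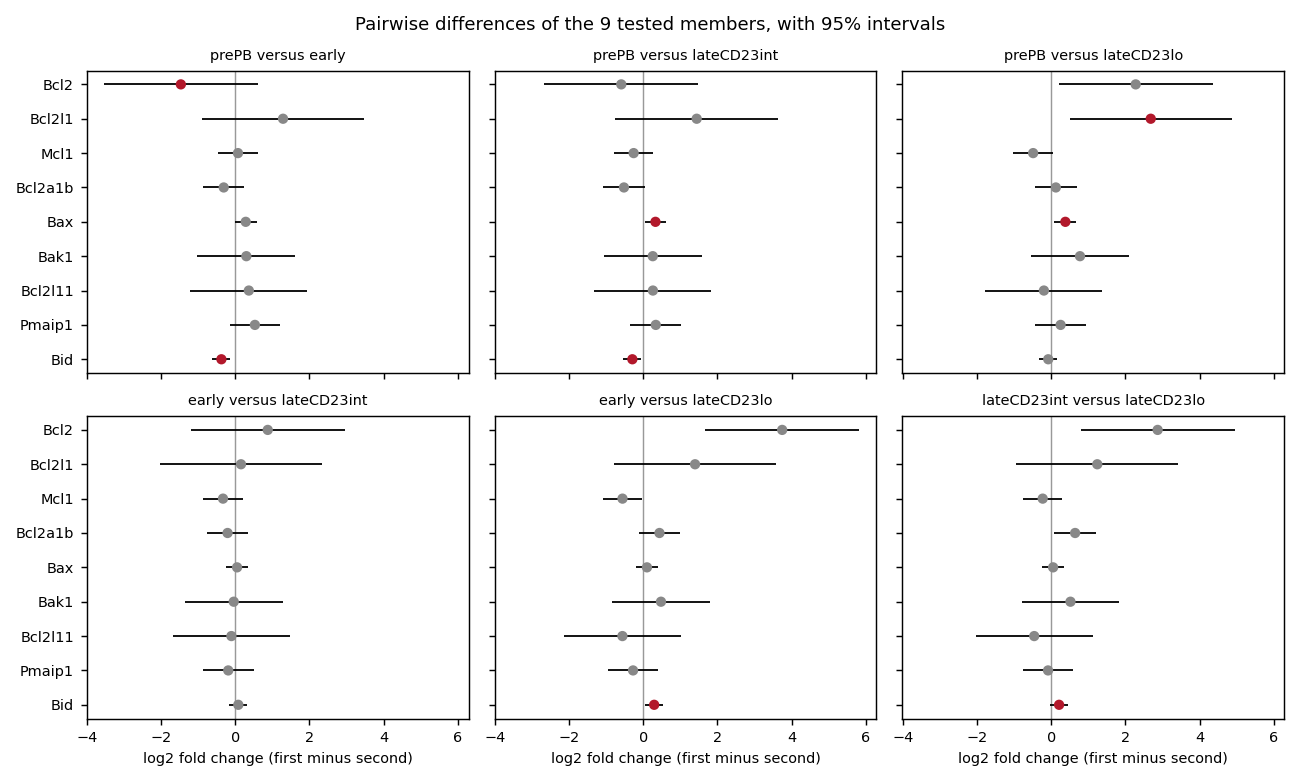
Log2 fold changes (first group minus second) of the 9 tested members in the 6 pairwise comparisons, with lines for the 95% intervals of the limma model and red points where the 4 libraries of each group do not overlap. The intervals of Bid and Bax are narrow around small differences, while those of Bcl2 and Bcl2l1 span more than 4 log2 units.

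The members differed in how well the libraries of a group agreed. The SD within groups, pooled over the 4 subpopulations on the log2 scale, was 0.105 for Bid and 0.142 for Bax, 0.393 for Mcl1, 0.426 for Bcl2a1b and 0.491 for Pmaip1. It was 1.003 for Bak1, 1.18 for Bcl2l11, 1.62 for Bcl2 and 1.72 for Bcl2l1. The prePB, early and lateCD23int groups each held libraries of both G+C sets, so this SD includes any difference between the sets. Spread depends on level, so each member was set beside the 500 tested genes nearest to it in mean. Only 0.4% of such genes had a smaller SD than Bid and 1.8% a smaller SD than Bax, whereas 97.2% had a smaller SD than Bcl2, 98.0% than Bcl2l1, 91.2% than Bak1 and 91.6% than Bcl2a1b. From the lowest to the highest library the level of Bid changed 1.47-fold and that of Bcl2l1 179-fold.

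**Figure D4:**
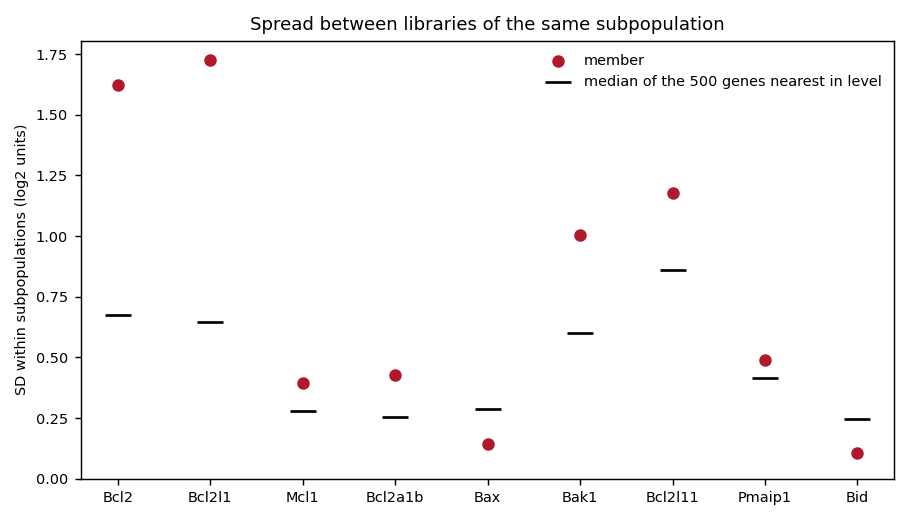
SD of log2(normalized count + 1) within subpopulations for the 9 tested members (red points) and the median SD of the 500 genes nearest to each in level (black bars). Bid and Bax lie under their bars at 0.105 and 0.142, and Bcl2 and Bcl2l1 lie far above theirs at 1.62 and 1.72.

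The members differed in direction, and whether they moved as a set was not tested. In each comparison the median log2 difference of the 9 tested members lay between -0.042 (cMyc+ early versus lateCD23int) and 0.30 (early versus lateCD23lo), where the medians of all tested genes lay between -0.028 and 0.016. In cMyc+ prePB versus lateCD23lo, 6 of 9 members had a positive difference (49.5% of all genes) and 3 a negative one. A positive difference was also held by 6 in prePB versus early (51.2%), early versus lateCD23lo (49.6%) and lateCD23int versus lateCD23lo (51.2%). It was held by 5 in prePB versus lateCD23int (48.2%) and 4 in early versus lateCD23int (47.0%). Prosurvival and death genes were found on both sides. In the comparison with early, for example, the fitted log2 difference of prePB was negative for Bcl2, Bcl2a1b and Bid and positive for the other 6 tested members. Of these 6, Bak1 turned negative with the G+C set as a term and Bcl2l11 was at -0.16 in edgeR, with means of 158 in prePB and 177 in early.

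Some members ran in parallel from library to library, but not alike in both G+C sets. The Pearson r of log2 values between Bcl2 and Bcl2a1b was 0.92 over the 9 libraries with a low G+C index and -0.098 over the 7 with a high one. Between Bcl2l1 and Bak1 it was 0.10 in the low and 0.73 in the high set, and between Mcl1 and Bcl2a1b it was 0.47 and 0.75. Mcl1 and Bak1, which the sets separate in opposite directions, had an r of -0.10 and -0.26 within them. The libraries share their scaling, and these are descriptions.

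**Figure D5:**
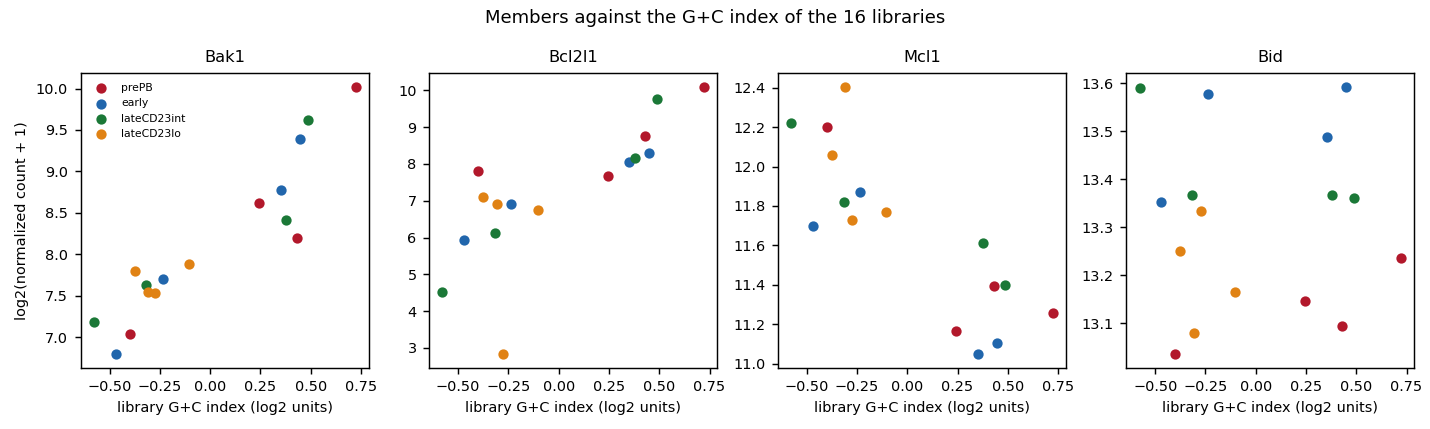
Log2(normalized count + 1) of Bak1, Bcl2l1, Mcl1 and Bid against the G+C index of the 16 libraries (log2 units), colored by subpopulation. The 9 libraries on the left and the 7 on the right do not overlap in Bak1 (110 to 235 against 291 to 1040) or in Mcl1 (3328 to 5425 against 2116 to 3129), but do in Bid. The share of all genes separated in this way is not given here.

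The genes most like each member over the 16 libraries were sought among 8669 tested genes with a mean of at least 100, by the Pearson r of log2 values. For Bcl2 they were Sdc4 (0.89), Spin2c (0.85) and Dock10 (0.85), and for Bcl2a1b the MHC class II genes H2-Ab1 (0.95) and H2-Aa (0.93) ahead of Bcl2a1d (0.92). For Bax they were 2210016F16Rik (0.85), Pole4 (0.82) and Batf (0.81), and for Bid Actr3 (0.82) and Appl1 (0.77). For Mcl1 the nearest were Ndufa11 (0.95), Snapc5 (0.94) and Hsbp1 (0.94), for Bak1 Arhgdia (0.94), Mcm5 (0.93) and Rnf187 (0.93), and for Bcl2l1 Dcaf8 (0.91), Tarbp2 (0.88) and Nkiras2 (0.87). Bcl2l11 ran closest to Nisch (0.82), Lig3 (0.81) and Kdm2b (0.81), and Pmaip1 to Zfp281 (0.82), Gm9800 (0.81) and Ppm1a (0.78). These are descriptions of 16 libraries that share their preparation, and for Mcl1, Bak1 and Bcl2l1 they span the 2 G+C sets.

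The rest of the pathway was read from a list of 59 genes, made up of other BCL2 family members, mitochondrial pore and released factors, apoptosome and caspases, caspase inhibitors, DNA fragmentation factors, the death receptor arm, MCL1 turnover and known regulators of the members. Of these, 55 passed the filter and 0 were called in any of the 8 limma comparisons. DESeq2 called up to 3 in a comparison and edgeR 0. With the replicate block limma called 1 in prePB versus lateCD23int, 3 in prePB versus lateCD23lo and 2 in prePB against the other 3 groups, and edgeR with the block called 1 in each of the last 2 of these. At an unadjusted p under 0.05 there were 7 in cMyc+ prePB versus early (12.7% of the list against 8.58% of all genes), 7 in prePB versus lateCD23int (12.7% against 8.77%) and 11 in prePB versus lateCD23lo (20% against 12.7%). There were 2 in early versus lateCD23int (3.64% against 3.71%), 9 in early versus lateCD23lo (16.4% against 10.3%) and 8 in lateCD23int versus lateCD23lo (14.5% against 6.28%). There were 9 in prePB against the other 3 groups (16.4% against 11.1%) and 13 in the F test (23.6% against 10.2%), and these counts are descriptions. The median log2 difference of the 55 genes lay between -0.096 and 0.051. The family genes Hrk, Bok and Bcl2l10 had 0 reads in every library, and Bik, the fourth under the filter, had a mean of 5.94.

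Of that list, 2 further genes were singled out after their values were seen. Bmf, a BH3-only gene related to Bcl2l11, measured 1.07, 2.48, 0 and 74.8 normalized counts in cMyc+ prePB and 81.6, 76.3, 181 and 54.8 in lateCD23int, a log2 difference of -4.21 (SE 1.21, limma adjusted p = 0.244). In prePB 3 of 4 libraries were at or near 0 and the remaining one was within the range of lateCD23int. Birc3, which encodes cIAP2, a ubiquitin ligase induced by NF-κB, had a difference of 0.78 between prePB and lateCD23lo (SE 0.22, limma adjusted p = 0.155).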

How the data were processed

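RNA-seq libraries of 4 sorted subpopulations, 4 each, were examined. Per the submitters' processing notes, Trimmomatic 0.36, STAR 2.5.2a, RSEM 1.2.31, R 3.5.1 and DESeq2 1.20.0 were used with GRCm38. Their settings, and whether counting used strand, are not given in the sources used here. The authors deposited normalized counts, a signal formed by dividing gene counts by size factors. All values were whole multiples of 1 step per library (100% within 0.01 of a read), and whole reads recovered in this way gave 19812080 to 25795815 reads per library. RSEM splits reads with several matches by estimate, which bears on the A1 copies.

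Groups were taken from the labels. Values were analysed as log2(normalized count + 1) for 12505 genes with a mean of at least 10, in 1 limma 3.58.1 model of all 16 libraries with the prior variance trended on mean level and BH (Benjamini-Hochberg) adjustment (R 4.3.3). The added 1 shrinks log2 fold changes of low genes, but a difference of mean logs can also exceed that of mean counts. For Bcl2 in cMyc+ early versus lateCD23lo it was 3.75 in limma and 2.13 in edgeR. Alternatives were pseudocounts of 0.5 and 5, other filters and scalings, no trend, only the groups compared, a replicate block, edgeR 4.0.16 and DESeq2 1.42.0 on recovered reads, and leaving out each library. The scripts were tested on simulated data. A G+C index of each library, and the 2 sets it splits the libraries into at its widest gap, were added after the data were seen. Loci, exon lengths and coding sequences came from GENCODE M21 (GRCm38), and the Bax upstream sequence from RefSeq (GRCm38.p6).

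The members and gene lists were chosen with earlier results of these data known. Every member is named. Log2 fold changes with errors are given where the unadjusted p was under 0.05, and beyond that rule for Bcl2 and Bid pairs without overlap, for some pairs of Bcl2a1b, Bcl2l11 and Pmaip1, for values set beside an alternative, and for Bcl2a1d, Bmf and Birc3. For each member the 3 most alike genes are named, except for Bid, where 2 are. Some items of the marker and likeness lists are not reported here, and the sums of naive markers were recomputed without them.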

Additional observations from a re-analysis of the deposited data

Results flagged for a closer look

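The 10 members in 4 subpopulations gave 40 groups of 4 libraries, and in 3 of them 1 library stood apart from the other 3 by Dixon's criterion, where chance alone flags about 1 in 20 groups. Mcl1 in cMyc+ prePB replicate 1 was at 4701 normalized counts, with the other 3 libraries between 2292 and 2693. Bid in cMyc+ lateCD23int replicate 1 was at 12335, with the others between 10517 and 10568. Bbc3 in cMyc+ prePB replicate 2 was at 22.3, with the others between 0 and 1.07.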

How the results depend on the processing

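The count of members called was 0 in every comparison and stayed 0 under every alternative except for Bcl2. In cMyc+ early versus lateCD23lo it became 1 with the replicate block (adjusted p = 0.0381), and ranged from 0 to 1 when single libraries were left out. In the F test it also ranged from 0 to 1. The 1 came in both cases without lateCD23lo replicate 1. Over the other settings with all 16 libraries the adjusted p for Bcl2 in this comparison lay between 0.0875 and 0.451, and the cause was not tested. The 1169 values recomputed were counts of calls, and fold changes of members only where the unadjusted p was under 0.05 in the main limma fit. Of these, 1048 kept their direction, side of the threshold and, for counts, their size, 119 counts moved, 2 became called and 0 reversed. Fold changes outside that selection were not counted, and some reversed. Bak1 in prePB versus lateCD23lo went from 0.78 to -0.55 with the G+C set as a term, and Bcl2l11 in prePB versus early from 0.37 to -0.16 in edgeR.

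The replicate block changed no other call among the members. Libraries with the same number deviated together only in part, with a correlation over 0.1 in 5 of 24 pairs over all tested genes and in 17 of 24 over genes with a mean of at least 1000, and 11 and 10 of 16 libraries correlated best with their own number. Over genes with a mean of at least 1000, the mean correlation was 0.26 between libraries of the same number. It was -0.081 between libraries of other groups and other numbers. Whether a number marks the same animals is not given in the labels and was not settled by these values. The main fit did not treat the numbers as pairs, and the replicate block is given as an alternative.

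Calls over all genes moved by more than 1.5 times. Against 24, 18, 33, 1, 35 and 1 calls in the 6 pairwise comparisons (in the order prePB versus early, lateCD23int and lateCD23lo, early versus lateCD23int and lateCD23lo, and lateCD23int versus lateCD23lo), 39 in prePB against the other 3 and 51 in the F test, DESeq2 gave 131, 130, 270, 20, 170, 14, 225 and 265, edgeR 8, 11, 31, 1, 23, 1, 36 and 29, and the replicate block 65, 121, 192, 1, 90, 1, 211 and 173. With only the groups compared, calls fell to 0 in prePB versus early and 8 in prePB versus lateCD23int. Without prePB replicate 1, calls in prePB versus lateCD23lo rose to 153. Counts of 3 reads or fewer in 8 of 16 libraries limit Bbc3.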
